A study of Homo sapiens with 12 samples.

Results

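The 58 genes described here encode factors that act in making ribosomes, which begins in the nucleolus, a compartment of the nucleus. The genes were picked by symbol, without a threshold on any measured value but with earlier results of these data known. All 58 were present among the 26364 gene rows of the deposited count table and were tested. In the nucleolus, RNA polymerase I transcribes the ribosomal DNA repeats into a long precursor RNA. Small nucleolar ribonucleoproteins (snoRNPs) of the box C/D and box H/ACA classes then guide the methylation and pseudouridylation of that precursor, and large assemblies of assembly factors, helicases and GTPases cleave and fold it into the small and large ribosomal subunits. Growing cells, lymphoma cells among them, spend much of their transcription on this pathway, and many of its genes are known targets of the transcription factor MYC.

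The study treated 2 lines of lymphoma cells, Granta-519 and JeKo-1, with 4 µM chidamide, a histone deacetylase inhibitor, for 12 h, or with a vehicle that the labels do not name, and asked about the effect of the drug on MYC. The groups are chidamide and vehicle libraries labelled JeKo-1 and chidamide and vehicle libraries of Granta-519, with 3 libraries each and 12 in all. All cells were grown in the same serum-supplemented RPMI1640 medium, and polyadenylated RNA was sequenced to 12873642 to 16592694 counts per library. Whether the replicates were separate cultures is not stated in the labels, so p-values reflect only how far these libraries spread, which can be technical. Both lines are known as mantle cell lymphoma lines, B cell tumours that usually express cyclin D1 and SOX11. SOX11 had no count in any library labelled JeKo-1, and CCND1, which encodes cyclin D1, averaged 0.934 CPM (a count scaled to a library total adjusted by the TMM method) in chidamide and 0.123 CPM in vehicle there, whereas in Granta-519 SOX11 averaged 133 CPM in chidamide and 157 CPM in vehicle, and CCND1 averaged 1747 CPM in chidamide and 2114 CPM in vehicle. The libraries labelled JeKo-1 are therefore called by their label throughout.

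Chidamide lowered most of these genes in both lines. In the libraries labelled JeKo-1, 53 of the 58 genes fell, 2 rose (UTP3 and POLR1D) and 3 did not pass (NOP10, WDR75 and RCL1), at an adjusted p under 0.05 in edgeR's quasi-likelihood test. Of all 15087 genes tested, 31.1% fell and 35.3% rose in that comparison. In Granta-519, 42 of the 58 fell, 7 rose (NPM1, UTP3, NOP56, RCL1, GNL3, NOP58 and GNL2) and 9 did not pass (NCL, RRP1, RRP1B, NOP10, WDR75, DDX10, POLR1D, POLR1E and TAF1D). There, 31.3% of all tested genes fell and 39.6% rose. The median log2 change of the 58 genes was -0.65 in the libraries labelled JeKo-1, beside 0.04 over all tested genes, and -0.34 in Granta-519, beside 0.08. Falls of 1.5-fold or more that passed the test numbered 35 in the libraries labelled JeKo-1, beside 11.1% of all tested genes, and 14 in Granta-519, beside 10.9%. No rise among the 58 reached that size in either line, beside 23.6% of all tested genes under the JeKo-1 label and 26.1% in Granta-519.

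The choice of scaling moved these medians but not their sign. Under upper-quartile scaling the median change of all tested genes became 0.19 in the libraries labelled JeKo-1 and 0.18 in Granta-519, and that of the 58 genes became -0.50 under the JeKo-1 label and -0.24 in Granta-519. Among all genes called in the libraries labelled JeKo-1, 53.1% were higher with TMM scaling, 64.9% with upper-quartile scaling and 63.7% with scaling by library size alone. In bulk libraries, fewer cells of one kind and less RNA of a gene per cell cannot be told apart.

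The same picture held library by library. In the libraries labelled JeKo-1, all 3 chidamide values lay below all 3 vehicle values for 52 genes and above them for 1, with overlap for 5; over all tested genes the shares were 31.4% below and 35.2% above. In Granta-519, the chidamide values lay below the vehicle values for 43 genes, above them for 8 and overlapped for 7, beside 32.5% below and 41.3% above over all tested genes. Replicates were close, with a median coefficient of variation of 3.46% over the 58 genes and 4 groups and a highest value of 12.8%. PPAN had few counts, 39 to 171 per library, and every other member had at least 333.

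**Figure D1:**
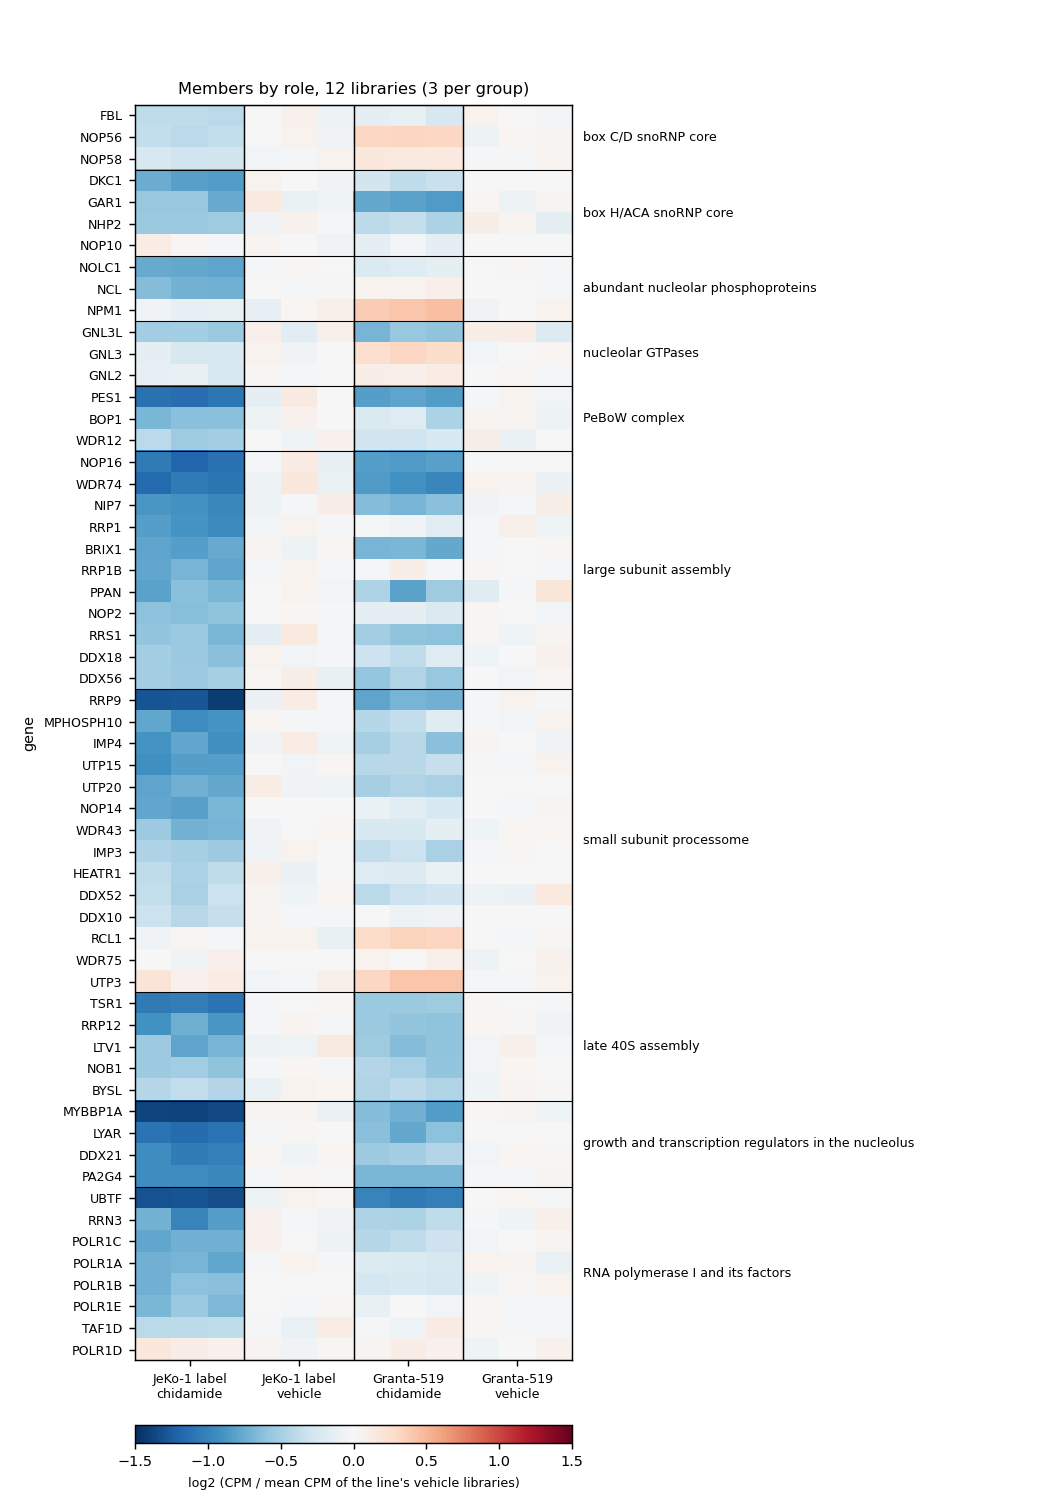
Log2 ratio of the CPM value in each of the 12 libraries to the mean of the 3 vehicle libraries of the same line, for the 58 genes (rows, grouped by role) and the 4 groups (columns); blue is lower and red is higher. The chidamide columns of the JeKo-1 label are blue for nearly all rows, while in Granta-519 NPM1, NOP56, NOP58, GNL3, RCL1 and UTP3 are red.

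To show the regulatory DNA of these genes, promoter windows of 300 bases were taken from RefSeq on GRCh38.p14. They ran from 250 bases before the transcript start to 50 bases from it on. Windows were at hand for 48 of the 58 genes, 60 windows in all. The E-box CACGTG, the palindromic hexamer known as the preferred site of MYC with its partner MAX, was searched on both strands and occurred in 18 of these 48 genes (37.5%). It occurred in 1346 of the 10858 tested genes with a window (12.4%). Counted by window, the shares were 30.0% of the 60 windows and 9.12% of the windows of tested genes, and 7.26% of all 35116 windows. Of the 20 E-boxes found, 18 began between 64 bases before and 35 bases after the transcript start.

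Sequences are given for 8 genes, 5′ to 3′ on the gene's strand, in lower case with the E-box in capitals. MYBBP1A, RRP9 and PES1 fell by 2-fold or more in the libraries labelled JeKo-1, GNL3 and RCL1 rose in Granta-519, and all 5 hold an E-box. NOP56 and UTP3, which rose in Granta-519, hold none. TSR1, which also fell by 2-fold or more under the JeKo-1 label and fell in Granta-519, holds none either.
MYBBP1A, chr17:4555335-4555634, minus strand: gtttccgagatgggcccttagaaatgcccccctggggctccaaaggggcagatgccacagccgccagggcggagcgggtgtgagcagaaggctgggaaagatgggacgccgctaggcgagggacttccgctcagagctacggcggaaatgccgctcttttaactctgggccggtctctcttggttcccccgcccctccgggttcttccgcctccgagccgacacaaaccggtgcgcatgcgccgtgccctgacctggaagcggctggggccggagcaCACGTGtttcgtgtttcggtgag
RRP9, chr3:51941855-51942154, minus strand: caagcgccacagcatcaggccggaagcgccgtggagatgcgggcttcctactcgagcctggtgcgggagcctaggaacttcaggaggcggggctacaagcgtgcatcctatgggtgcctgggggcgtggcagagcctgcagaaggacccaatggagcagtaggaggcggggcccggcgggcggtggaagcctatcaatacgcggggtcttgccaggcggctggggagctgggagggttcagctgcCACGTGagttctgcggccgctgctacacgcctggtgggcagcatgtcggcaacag
PES1, chr22:30591861-30592160, minus strand: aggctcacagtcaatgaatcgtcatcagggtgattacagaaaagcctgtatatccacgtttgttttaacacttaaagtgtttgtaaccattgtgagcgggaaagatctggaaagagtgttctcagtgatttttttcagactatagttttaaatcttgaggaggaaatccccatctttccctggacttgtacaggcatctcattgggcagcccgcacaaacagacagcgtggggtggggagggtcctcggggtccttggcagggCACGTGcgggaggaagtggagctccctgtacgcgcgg
GNL3, chr3:52685782-52686081, plus strand: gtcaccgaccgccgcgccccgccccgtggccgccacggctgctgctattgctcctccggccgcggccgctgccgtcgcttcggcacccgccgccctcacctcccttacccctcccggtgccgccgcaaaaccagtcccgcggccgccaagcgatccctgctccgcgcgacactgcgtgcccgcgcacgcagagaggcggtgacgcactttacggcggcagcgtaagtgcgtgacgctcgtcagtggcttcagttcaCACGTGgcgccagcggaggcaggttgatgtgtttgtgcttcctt
RCL1, chr9:4792694-4792993, plus strand: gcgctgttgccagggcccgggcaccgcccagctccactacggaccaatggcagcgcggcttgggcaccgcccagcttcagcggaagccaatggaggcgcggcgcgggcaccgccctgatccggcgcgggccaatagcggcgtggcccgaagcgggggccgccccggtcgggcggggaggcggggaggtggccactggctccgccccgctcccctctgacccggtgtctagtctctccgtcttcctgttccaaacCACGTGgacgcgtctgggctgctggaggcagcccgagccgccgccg
NOP56, chr20:2652382-2652681, plus strand: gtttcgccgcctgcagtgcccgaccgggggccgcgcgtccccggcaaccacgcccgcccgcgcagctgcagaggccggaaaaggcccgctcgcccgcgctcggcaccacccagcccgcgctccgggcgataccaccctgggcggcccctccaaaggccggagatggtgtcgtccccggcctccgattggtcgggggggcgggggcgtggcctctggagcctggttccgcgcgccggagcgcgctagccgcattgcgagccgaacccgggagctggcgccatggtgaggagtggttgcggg
UTP3, chr4:70688282-70688581, plus strand: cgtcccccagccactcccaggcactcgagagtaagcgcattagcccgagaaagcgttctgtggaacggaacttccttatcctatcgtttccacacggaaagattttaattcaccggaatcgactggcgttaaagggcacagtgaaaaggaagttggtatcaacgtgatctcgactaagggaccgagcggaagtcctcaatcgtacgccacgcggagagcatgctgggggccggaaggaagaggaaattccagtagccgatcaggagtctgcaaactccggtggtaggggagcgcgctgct
TSR1, chr17:2336408-2336707, minus strand: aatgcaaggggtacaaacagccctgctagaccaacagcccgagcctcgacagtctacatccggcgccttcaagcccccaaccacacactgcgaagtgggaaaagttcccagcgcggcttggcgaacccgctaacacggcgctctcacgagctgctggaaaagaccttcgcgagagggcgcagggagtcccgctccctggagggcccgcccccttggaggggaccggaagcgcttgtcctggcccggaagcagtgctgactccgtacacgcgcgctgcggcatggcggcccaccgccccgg
In MYBBP1A the E-box begins 27 bases after the start base, in PES1 13, in GNL3 6 and in RCL1 4 bases after it, and in RRP9 5 bases before it. GNL3 has a further window without one.

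The changes of genes with and without the E-box lay close together by their medians. The 18 genes with it had a median log2 change of -0.66 in the libraries labelled JeKo-1, where 16 fell, and of -0.45 in Granta-519, where 14 fell. The 30 genes without it had medians of -0.68 under the JeKo-1 label, with 27 lower, and -0.38 in Granta-519, with 21 lower. Of other short motifs, 4 were counted the same way in the 48 genes and in the tested genes with a window: CCAAT in 41.7% and 42.9%, CCGGAAG, an ETS-type site, in 39.6% and 20.9%, TATAAA in 4.17% and 9.01%, and the palindromic NRF1 motif in 8.33%, which is 4 of the 48 genes, and 2.56%. The median GC content of the windows was 64.2% for the 48 genes and 64.3% for tested genes. A match describes letters in a window and was not tested as a binding site.

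**Figure D2:**
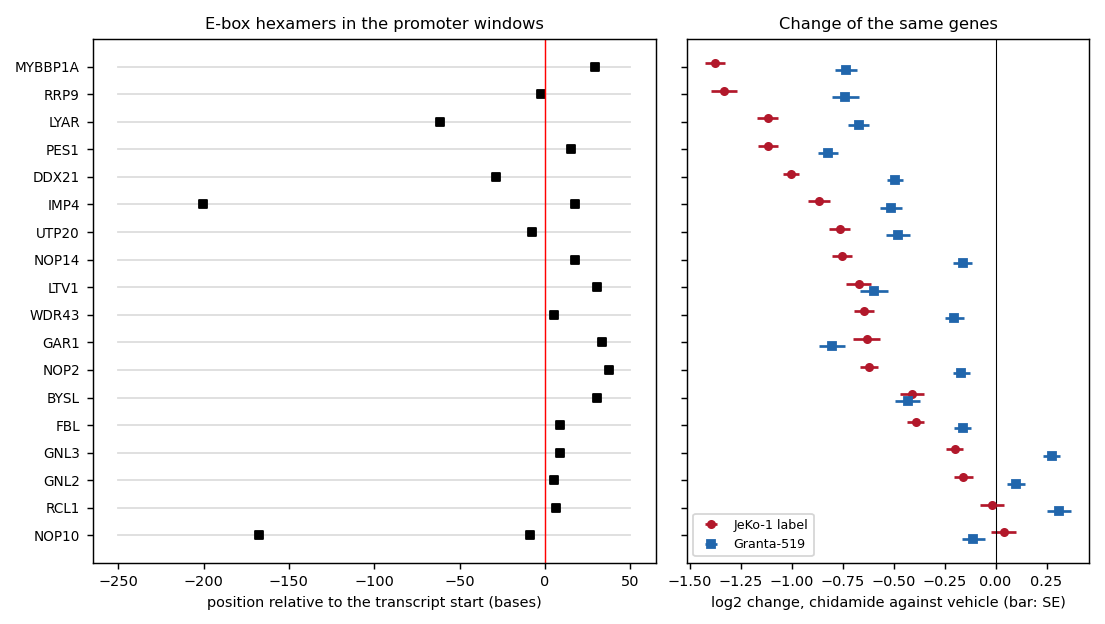
Left, position of each E-box hexamer (squares, in bases from the transcript start, red line) in the promoter windows of the 18 genes that hold one. Right, log2 change with chidamide of the same genes (points, with bars for the SE) under the JeKo-1 label (circles) and in Granta-519 (squares); most sites lie near the start, over genes that fell by more than 1 on the log2 scale as well as genes that rose.

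RNA polymerase I and its factors fell in the libraries labelled JeKo-1 for 7 of 8 genes and in Granta-519 for 5 of 8. UBTF, the HMG-box protein that binds ribosomal DNA and opens it for the polymerase, had the largest fall of the 58 genes in Granta-519. It had 202, 204 and 198 CPM in the chidamide libraries labelled JeKo-1, against 472, 518 and 507 CPM in vehicle. The Granta-519 libraries held 136, 130 and 134 CPM in chidamide, against 273, 278 and 267 CPM in vehicle. The libraries of the groups did not overlap in either line, and the log2 change was -1.31 under the JeKo-1 label (SE 0.04, edgeR adjusted p = 1.37e-33) and -1.03 in Granta-519 (SE 0.04, edgeR adjusted p = 2.25e-28). RRN3, known as TIF-IA, the factor that carries the growth signal to the polymerase, averaged 49.0 ± 4.95 CPM in chidamide and 87.9 ± 3.76 CPM in vehicle under the JeKo-1 label, and 96.1 ± 3.37 CPM in chidamide and 131 ± 7.01 CPM in vehicle in Granta-519 (SD, n = 3 each). Its log2 change was -0.84 under the JeKo-1 label and -0.44 in Granta-519.

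The subunits that form the polymerase itself fell less than UBTF. POLR1A, the largest catalytic subunit, averaged 164 ± 4.70 CPM in chidamide and 271 ± 9.04 CPM in vehicle under the JeKo-1 label (log2 change -0.73), and 142 ± 1.61 CPM in chidamide and 166 ± 9.63 CPM in vehicle in Granta-519 (-0.22). POLR1B, the second largest subunit, changed by -0.65 (JeKo-1 label) and -0.25 (Granta-519), and POLR1C, shared with RNA polymerase III, by -0.74 (JeKo-1 label) and -0.37 (Granta-519). POLR1E, a subunit particular to RNA polymerase I, had 59.9, 65.3 and 60.3 CPM in chidamide under the JeKo-1 label, against 96.2, 95.01 and 97.4 CPM in vehicle, a log2 change of -0.64, and in Granta-519 the value was -0.05 and did not pass. TAF1D, part of the promoter selectivity factor, had a log2 change of -0.39 in the libraries labelled JeKo-1, and 0.01, not passed, in Granta-519.

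POLR1D, the other subunit shared with RNA polymerase III, was the exception. It had 206, 199 and 193 CPM in chidamide under the JeKo-1 label, against 190, 178 and 188 CPM in vehicle, and rose by 0.11 on the log2 scale (edgeR adjusted p = 0.0333). This call was lost without chidamide replicate 1 (adjusted p = 0.115) or vehicle replicate 2 (adjusted p = 0.0865) of that line. In Granta-519 its log2 change was 0.07 and did not pass.

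The core proteins of box C/D snoRNPs, which carry out ribose methylation, fell in the libraries labelled JeKo-1 for 3 of 3 genes. In Granta-519, FBL, the methyltransferase, fell while its scaffold partners NOP56 and NOP58 rose. NOP56 had 385, 376 and 386 CPM in chidamide under the JeKo-1 label, against 497, 516 and 482 CPM in vehicle. The 3 chidamide libraries of Granta-519 had 177, 178 and 177 CPM, against 135, 145 and 147 CPM in vehicle. The groups did not overlap in either line, with opposite order: the log2 change was -0.38 under the JeKo-1 label (edgeR adjusted p = 1.1e-12) and 0.31 in Granta-519 (edgeR adjusted p = 4.68e-09). NOP58 changed by -0.27 (JeKo-1 label) and 0.15 (Granta-519), and its rise in Granta-519 was lost without the filter on low counts (adjusted p = 0.469) and in a fit of the 6 Granta-519 libraries alone (adjusted p = 0.0729). FBL changed by -0.39 (JeKo-1 label) and -0.16 (Granta-519), and the Granta-519 fall did not pass under upper-quartile scaling (adjusted p = 0.167).

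Among the core proteins of box H/ACA snoRNPs, which carry out pseudouridylation, 3 of 4 genes fell in each line. DKC1, the pseudouridine synthase, averaged 160 ± 5.26 CPM in chidamide and 279 ± 11.1 CPM in vehicle under the JeKo-1 label (log2 change -0.80), and 185 ± 6.83 CPM in chidamide and 233 ± 1.45 CPM in vehicle in Granta-519 (-0.33). GAR1, a subunit of the mature particle, had 44.7, 44.9 and 39.2 CPM in chidamide under the JeKo-1 label, against 73.3, 62.2 and 63.6 CPM in vehicle. Granta-519 libraries held 51.7, 50.8 and 49.1 CPM in chidamide, against 90.1, 83.5 and 91.1 CPM in vehicle. GAR1 thus had the reverse order of most members, a larger fall in Granta-519 (-0.80) than under the JeKo-1 label (-0.63), but the difference of 0.17 (SE 0.09) did not pass (edgeR adjusted p = 0.135). NHP2, which binds the guide RNA, changed by -0.55 (JeKo-1 label) and -0.41 (Granta-519). NOP10, the smallest subunit, did not pass in either line, with a log2 change of 0.04 under the JeKo-1 label and -0.11 in Granta-519.

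The abundant nucleolar phosphoproteins were the role group with the largest median difference between the lines, -0.59 on the log2 scale. NCL, nucleolin, a histone and RNA chaperone of the nucleolus, had 1498, 1432 and 1421 CPM in chidamide under the JeKo-1 label, against 2335, 2329 and 2386 CPM in vehicle, and fell by 0.70 on the log2 scale (edgeR adjusted p = 2.75e-25). In Granta-519 it had 1485, 1479 and 1506 CPM in chidamide, against 1432, 1440 and 1417 CPM in vehicle, a value of 0.06 on the log2 scale (edgeR adjusted p = 0.108, not passed), although the groups did not overlap. Of 20 alternative settings, 5 called NCL higher with chidamide there, DESeq2's Wald test among them, and its adjusted p in edgeR or DESeq2 ranged from 7.11e-05 to 1 over the 20. NCL in chidamide was thus at nearly equal CPM in the lines, after unequal vehicle levels. NOLC1, a chaperone that shuttles snoRNPs, averaged 301 ± 4.28 CPM in chidamide and 513 ± 6.82 CPM in vehicle under the JeKo-1 label (-0.77), and 415 ± 10.6 CPM in chidamide and 470 ± 5.18 CPM in vehicle in Granta-519 (-0.18).

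NPM1, nucleophosmin, which binds nascent subunits and is the most abundant member, rose in Granta-519. It had 1669, 1711 and 1750 CPM in chidamide there, against 1238, 1276 and 1336 CPM in vehicle (log2 change 0.41, SE 0.04, edgeR adjusted p = 6.81e-14). Under the JeKo-1 label it had 2135, 2033 and 2051 CPM in chidamide, against 2048, 2277 and 2341 CPM in vehicle. Those groups overlapped, and the log2 change of -0.10 passed narrowly (edgeR adjusted p = 0.0192). The call was lost without chidamide replicate 2 or 3 or vehicle replicate 2 or 3, with adjusted p-values of 0.166, 0.119, 0.10 and 0.159, and the value turned to 0.05 under upper-quartile scaling and 0.03 under library-size scaling. NPM1 has 45 named pseudogenes in GENCODE 29, so reads of near-identical copies may have been split among them.

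Among the nucleolar GTPases, GNL3L fell in both lines and GNL3 and GNL2 went opposite ways. GNL3, nucleostemin, had 284, 266 and 268 CPM in chidamide under the JeKo-1 label, against 324, 302 and 314 CPM in vehicle. Its levels in Granta-519 were 232, 242 and 234 CPM in chidamide, against 189, 196 and 199 CPM in vehicle. The log2 change was -0.20 under the JeKo-1 label (edgeR adjusted p = 2.93e-05) and 0.28 in Granta-519 (edgeR adjusted p = 7.84e-08), and the fall under the JeKo-1 label was lost with upper-quartile scaling (adjusted p = 0.257) and library-size scaling (adjusted p = 0.139). GNL2, whose yeast homologue acts on the large subunit precursor before export, changed by -0.16 (JeKo-1 label) and 0.10 (Granta-519). Its fall was lost without chidamide replicate 3 of the JeKo-1 label (adjusted p = 0.0687) and under upper-quartile and library-size scaling and without the filter. Its rise was lost without JeKo-1 label vehicle replicate 3 (adjusted p = 0.0553), Granta-519 chidamide replicate 3 (0.0506) or any of Granta-519 vehicle replicates 1, 2 and 3 (0.106, 0.0699 and 0.124), under library-size scaling and in a fit of the Granta-519 libraries alone, and the value turned to -0.01 without the filter. GNL3L, the paralogue of GNL3, changed by -0.53 (JeKo-1 label) and -0.63 (Granta-519).

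The PeBoW complex, which acts in large subunit maturation, fell as a whole, with 3 of 3 genes in each line. PES1, pescadillo, had 148, 145 and 151 CPM in chidamide under the JeKo-1 label, against 289, 353 and 319 CPM in vehicle, a 2.17-fold fall. In Granta-519 it had 119, 122 and 118 CPM in chidamide, against 208, 219 and 205 CPM in vehicle, a 1.77-fold fall. BOP1, its binding partner, changed by -0.65 (JeKo-1 label) and -0.29 (Granta-519) on the log2 scale, and WDR12, the third subunit, by -0.48 (JeKo-1 label) and -0.27 (Granta-519).

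The other large subunit assembly factors fell in the libraries labelled JeKo-1 for 11 of 11 genes and in Granta-519 for 9 of 11. NOP16 and WDR74 fell most: NOP16 averaged 64.6 ± 2.72 CPM in chidamide and 140 ± 11.8 CPM in vehicle under the JeKo-1 label (-1.12), and 61.5 ± 0.781 CPM in chidamide and 109.2 ± 0.296 CPM in vehicle in Granta-519 (-0.83). WDR74 changed by -1.11 (JeKo-1 label) and -0.91 (Granta-519), and NIP7 by -0.91 (JeKo-1 label) and -0.66 (Granta-519). BRIX1, of the Brix domain family, changed by -0.79 (JeKo-1 label) and -0.71 (Granta-519), and RRS1, which in yeast helps add the smallest ribosomal RNA to the large subunit, by -0.61 (JeKo-1 label) and -0.58 (Granta-519). The helicase DDX56 changed by -0.52 (JeKo-1 label) and -0.53 (Granta-519), and the helicase DDX18 by -0.56 (JeKo-1 label) and -0.29 (Granta-519). NOP2, a cytosine methyltransferase of the large subunit RNA, changed by -0.62 (JeKo-1 label) and -0.17 (Granta-519), the last of which did not pass under upper-quartile scaling (adjusted p = 0.149). PPAN changed by -0.71 under the JeKo-1 label (SE 0.13) and -0.59 in Granta-519 (SE 0.18), and its locus is shared with the readthrough transcript PPAN-P2RY11 and with P2RY11.

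RRP1 and RRP1B, paralogues that act in large subunit processing, were the members with the widest gap between lines. RRP1 had 87.4, 84.2 and 80.1 CPM in chidamide under the JeKo-1 label, against 151, 161 and 153 CPM in vehicle. Its Granta-519 values were 124, 121 and 112 CPM in chidamide, against 124, 132 and 120 CPM in vehicle. RRP1B had 215, 228 and 213 CPM in chidamide under the JeKo-1 label, against 363, 382 and 363 CPM in vehicle. Its Granta-519 levels were 159, 173 and 161 CPM in chidamide, against 165, 163 and 160 CPM in vehicle. Both genes fell without overlap under the JeKo-1 label (-0.88 and -0.76), and both overlapped and did not pass in Granta-519 (-0.08 and 0.01).

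In the small subunit processome, the assembly that cleaves the precursor toward the small subunit, 11 of 14 genes fell in the libraries labelled JeKo-1 and 1 rose, and in Granta-519 10 fell and 2 rose. RRP9, the U3 snoRNP protein, had 42.4, 42.8 and 38.7 CPM in chidamide under the JeKo-1 label, against 98.2, 112 and 101 CPM in vehicle (log2 change -1.33, SE 0.06, edgeR adjusted p = 3.59e-26). In Granta-519 it had 38.2, 40.8 and 40.2 CPM in chidamide, against 65.1, 68.7 and 64.7 CPM in vehicle (-0.74, SE 0.06, edgeR adjusted p = 3.82e-15). As with NCL, the chidamide levels of the lines lay close together. The U3-binding group of MPHOSPH10, IMP4 and IMP3 changed by -0.87, -0.86 and -0.50 in the libraries labelled JeKo-1 and by -0.32, -0.51 and -0.39 in Granta-519.

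UTP15 changed by -0.86 (JeKo-1 label) and -0.39 (Granta-519), and UTP20 by -0.76 (JeKo-1 label) and -0.48 (Granta-519). WDR43 changed by -0.65 (JeKo-1 label) and -0.20 (Granta-519), and NOP14 by -0.75 (JeKo-1 label) and -0.16 (Granta-519). HEATR1, a large scaffold protein, changed by -0.41 (JeKo-1 label) and -0.17 (Granta-519), and the helicase DDX52 by -0.39 (JeKo-1 label) and -0.34 (Granta-519). The Granta-519 falls of NOP14 and HEATR1 did not pass under upper-quartile scaling (adjusted p = 0.225 and 0.156). The helicase DDX10 had a log2 change of -0.36 in the libraries labelled JeKo-1 and -0.04, not passed, in Granta-519. WDR75, at 0.01 under the JeKo-1 label and 0.04 in Granta-519, passed in neither line.

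UTP3 and RCL1 were the processome members that rose. UTP3, known as SAS10, had 95.8, 87.7 and 90.5 CPM in chidamide under the JeKo-1 label, against 81.3, 81.8 and 88.3 CPM in vehicle, and 111, 120 and 120 CPM in chidamide in Granta-519, against 87.7, 88.3 and 93.3 CPM in vehicle. The groups overlapped under the JeKo-1 label (0.13, edgeR adjusted p = 0.0363) and were apart in Granta-519 (0.38, edgeR adjusted p = 5.25e-09). The call under the JeKo-1 label was lost without chidamide replicate 1 (adjusted p = 0.148) or vehicle replicate 1 (0.0877) or 2 (0.0565). RCL1, the endonuclease-like cyclase homologue, had 70.0, 72.9 and 71.9 CPM in chidamide in Granta-519, against 57.8, 56.9 and 58.4 CPM in vehicle (0.31, edgeR adjusted p = 5.71e-06), and did not pass under the JeKo-1 label (-0.02).

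All 5 late small subunit assembly factors fell in both lines. TSR1, a GTPase-like factor that in yeast blocks premature joining of the subunits, had 105, 107 and 102 CPM in chidamide under the JeKo-1 label, against 216, 221 and 221 CPM in vehicle, and 53.7, 54.1 and 54.8 CPM in chidamide in Granta-519, against 81.1, 79.0 and 77.8 CPM in vehicle. Its fall was 2.09-fold under the JeKo-1 label and 1.46-fold in Granta-519. RRP12, an export factor, changed by -0.84 (JeKo-1 label) and -0.58 (Granta-519) on the log2 scale, and LTV1 by -0.67 (JeKo-1 label) and -0.60 (Granta-519). NOB1, the endonuclease that makes the final small subunit RNA end, changed by -0.56 (JeKo-1 label) and -0.51 (Granta-519), and BYSL, bystin, by -0.41 (JeKo-1 label) and -0.43 (Granta-519).

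The 4 growth and transcription regulators of the nucleolus were the role group with the largest median fall under the JeKo-1 label, -1.06, and fell in Granta-519 with a median of -0.68. MYBBP1A, a MYB-binding protein that also acts on ribosomal DNA transcription, had the largest fall of the 58 genes in the libraries labelled JeKo-1. It had 113, 112 and 115 CPM in chidamide, against 301, 302 and 277 CPM in vehicle there, a 2.59-fold fall (edgeR adjusted p = 1.66e-31). In Granta-519 it had 68.1, 65.1 and 59.9 CPM in chidamide, against 109.1, 110 and 102 CPM in vehicle, a 1.66-fold fall (edgeR adjusted p = 4.27e-18). LYAR, a zinc finger growth regulator, changed by -1.12 (JeKo-1 label) and -0.67 (Granta-519) on the log2 scale.

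DDX21, a helicase that couples transcription to RNA processing, had 423, 392 and 396 CPM in chidamide under the JeKo-1 label, against 824, 772 and 828 CPM in vehicle (-1.0), and 489, 499 and 526 CPM in chidamide in Granta-519, against 688, 723 and 721 CPM in vehicle (-0.49). PA2G4, also called EBP1, an ERBB3-binding protein found in ribosome precursors, had 355, 354 and 347 CPM in chidamide under the JeKo-1 label, against 669, 687 and 680 CPM in vehicle (-0.95), and 320, 319 and 320 CPM in chidamide in Granta-519, against 505, 508 and 531 CPM in vehicle (-0.69). No library of either gene overlapped between treatments.

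**Figure D3:**
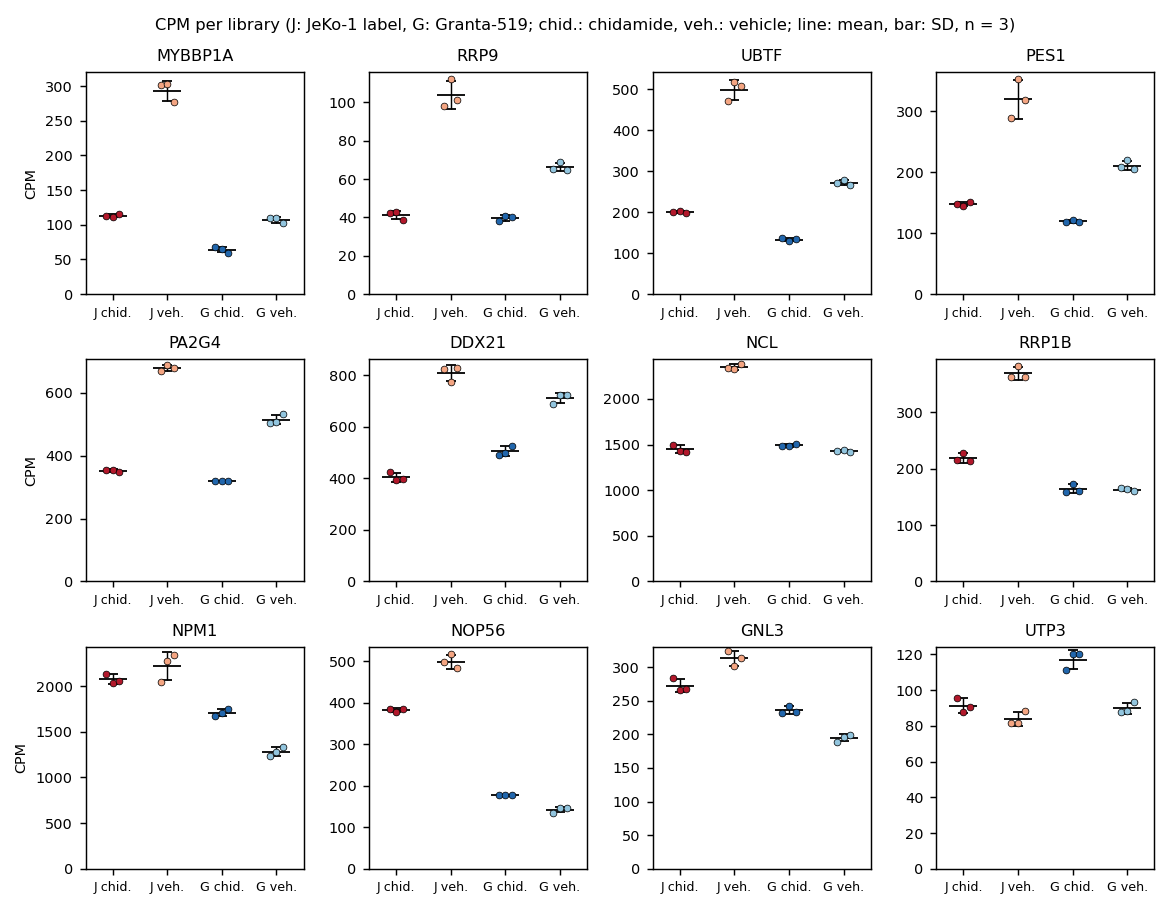
CPM in each of the 12 libraries (points) for 12 of the genes, with the mean (line) and SD (bar, n = 3) of each group; the vertical axes start at 0. MYBBP1A, RRP9, UBTF, PES1, PA2G4 and DDX21 are lower with chidamide in both lines, NCL and RRP1B are lower under the JeKo-1 label, and NPM1, NOP56, GNL3 and UTP3 are higher with chidamide in Granta-519.

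The effect of chidamide on these genes differed between the lines in 1 direction. The contrast of the chidamide effect under the JeKo-1 label minus that in Granta-519 passed for 41 of the 58 genes, each time more negative under the JeKo-1 label, and more positive there for 0. Over all tested genes, 19.5% passed with a more negative and 20% with a more positive change. The median of this contrast was -0.31 for the 58 genes and 0.02 for all tested genes, and 52 of the 58 values were negative. DESeq2 called 41 more negative and 0 more positive. The count of 41 fell to 28 under library-size scaling, 26 without the filter on low counts and 22 when a minimum fold of 1.2 was required, and more positive calls then numbered 4, 5 and 0. Under library-size scaling and without the filter the median of this contrast over all tested genes was 0.16 and 0.18, with 70.0% and 72.9% of all calls positive, against 50.6% in the TMM fit. All 41 kept a negative value under every alternative run.

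The widest differences were RRP1 (-0.81), RRP1B (-0.77), NCL (-0.76), NOP56 (-0.70), MYBBP1A (-0.64) and RRP9 (-0.60). In both lines 42 of the 58 genes fell, beside 22.4% of all tested genes. Of these 42 genes, 28 passed this contrast, a share that was not computed for all tested genes that fell in both lines. The 5 genes with opposite calls, NPM1, NOP56, NOP58, GNL2 and GNL3, all passed it, which their opposite calls in the same fit make likely beforehand. GNL2 did not pass it under library-size scaling (edgeR adjusted p = 0.122) or without the filter (edgeR adjusted p = 0.339). Of all tested genes, 2.98% fell under the JeKo-1 label and rose in Granta-519. No member rose under the JeKo-1 label and fell in Granta-519, as 2.18% of all tested genes did, and UTP3 alone rose in both lines, as did 24.1%. By role, the contrast passed for 7 of 8 genes of RNA polymerase I, 11 of 14 of the small subunit processome, 4 of 4 nucleolar regulators and 3 of 3 phosphoproteins, but for 1 of 4 box H/ACA genes and 2 of 5 late small subunit factors. These counts by role moved with the setting. Under library-size scaling, and also without the filter, UTP3, UTP20, HEATR1, RCL1 and DDX10 of the processome did not pass the contrast. The same held for POLR1C and for the late factor RRP12, and UBTF and PA2G4 did not pass without the filter. Among late factors and large subunit factors, NOB1, LTV1, BYSL, BRIX1, RRS1 and DDX56 had differences between -0.07 and 0.02 that did not pass. Across the 58 genes the changes in both lines had a Spearman correlation of 0.72 and a Pearson correlation of 0.77, beside 0.66 and 0.57 over all tested genes, as a description across genes that share libraries.

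**Figure D4:**
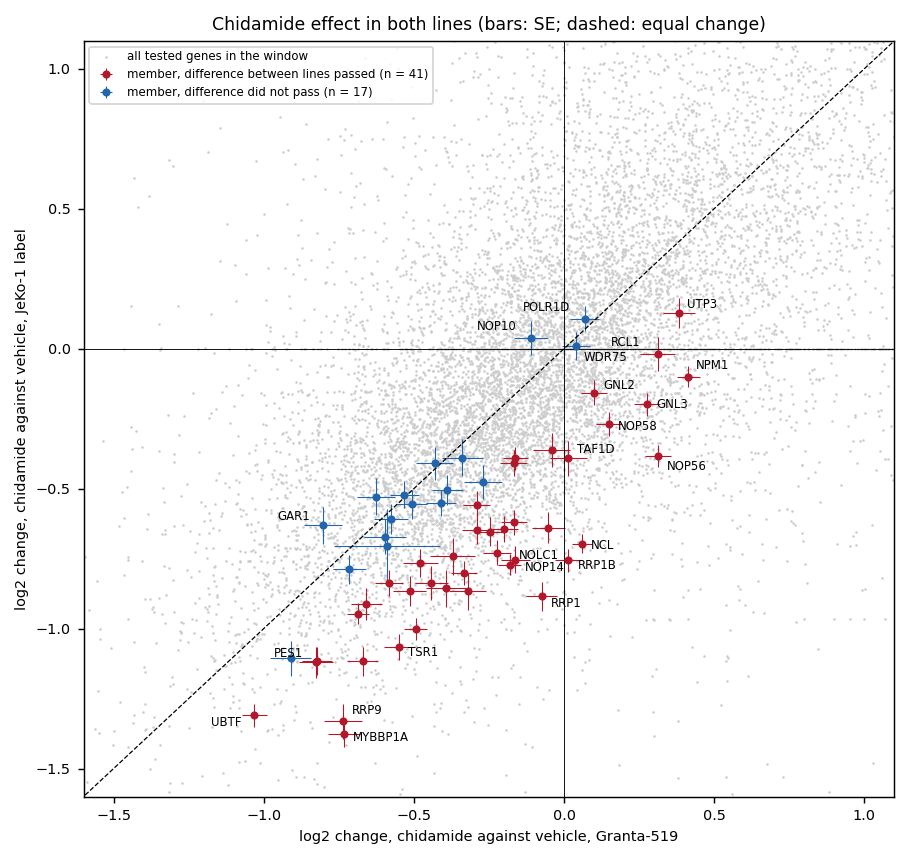
Log2 change with chidamide in Granta-519 (horizontal) against that under the JeKo-1 label (vertical), with SE bars, for the 58 genes over all tested genes in the plotted range (grey); the dashed line marks equal change. The 41 genes in red passed the test of the difference and all lie below the dashed line, and the 17 in blue did not pass.

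MYC, named in the study's question, moved in opposite directions in the lines. It averaged 203 CPM in chidamide and 329 CPM in vehicle under the JeKo-1 label (log2 change -0.70, edgeR adjusted p = 3.03e-21), and 124 CPM in chidamide and 85.1 CPM in vehicle in Granta-519 (0.54, edgeR adjusted p = 4.34e-15). MYCL averaged 24.0 CPM in chidamide and 3.90 CPM in vehicle under the JeKo-1 label, and 18.2 CPM in chidamide and 6.34 CPM in vehicle in Granta-519. In Granta-519, 42 members thus fell beside a higher MYC level, and 7 rose. The part of MYC in these changes was not tested.

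In vehicle, most of the genes were higher in the libraries labelled JeKo-1 than in Granta-519. Of the 58, 40 were higher and 11 lower, and 7 did not pass, while 35.5% of all tested genes were higher and 44.3% lower. The median log2 difference was 0.34, beside -0.13 over all tested genes, and it was 0.20, beside -0.27, under library-size scaling. NOP56 (1.81), UTP20 (1.59), TSR1 (1.47), MYBBP1A (1.46), PPAN (1.29), RRP1B (1.18) and POLR1C (1.13) were the most raised, and DDX18 (-1.42) and POLR1B (-1.04) the most lowered. For DDX18 the vehicle libraries held 132, 124 and 125 CPM under the JeKo-1 label, against 326, 340 and 355 CPM in Granta-519. For NOP56 they held 497, 516 and 482 CPM under the JeKo-1 label, against 135, 145 and 147 CPM in Granta-519. Values of all 3 vehicle libraries lay above those of the other line for 40 genes and below them for 11, beside 35.3% and 44.2% of all tested genes. The call for DDX56 (0.12) was lost without JeKo-1 label vehicle replicate 1 or 2 or Granta-519 vehicle replicate 2. It was also lost under the 3 other scalings, without the filter on low counts and in DESeq2. That of GNL3L (-0.18) was lost without Granta-519 vehicle replicate 1 or 2. Those of NOP2 (0.15) and NOLC1 (0.13) were lost under upper-quartile and library-size scaling and without the filter.

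The levels of the genes relative to each other can be read only per length, from the length-scaled score of the second deposited table. On that scale NPM1 led in every group, with 237 ± 6.02 in chidamide and 231 ± 16.3 in vehicle under the JeKo-1 label, and 195 ± 5.01 in chidamide and 148 ± 5.58 in vehicle in Granta-519 (SD, n = 3 each). NCL came next, with 108.5 ± 2.91 in chidamide and 160 ± 2.90 in vehicle under the JeKo-1 label, and 111 ± 1.4 in chidamide and 108 ± 0.860 in vehicle in Granta-519. FBL followed in all 4 groups, with scores of 43.4 to 68.0, and PPAN was lowest, with 0.375 to 1.26. UBTF took rank 30 in chidamide and rank 16 in vehicle under the JeKo-1 label, and rank 42 in chidamide and rank 28 in vehicle in Granta-519.

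Together the 58 genes held a smaller share of all counts with chidamide. The share was 1.05% to 1.08% in chidamide and 1.43% to 1.47% in vehicle under the JeKo-1 label, and 1.03% to 1.04% in chidamide and 1.15% to 1.16% in vehicle in Granta-519. NPM1 and NCL weigh heavily in this sum, and in Granta-519 their share rose while that of the rest fell. Without them the share was 0.696% to 0.709% in chidamide and 1.02% to 1.03% in vehicle under the JeKo-1 label, and 0.701% to 0.708% in chidamide and 0.878% to 0.884% in vehicle in Granta-519. NPM1 and NCL alone held 0.353% to 0.371% in chidamide and 0.409% to 0.443% in vehicle under the JeKo-1 label, and 0.322% to 0.334% in chidamide and 0.275% to 0.282% in vehicle in Granta-519. The chidamide shares of the lines without NPM1 and NCL overlapped, and their vehicle shares did not.

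In GENCODE 29, 10 of the genes hold small nucleolar RNA genes within their span: NCL, NOP56, NOP58, DKC1, GNL3, WDR43, PPAN, TSR1, TAF1D and POLR1C. Such host genes give rise to the guide RNAs from their introns. All 10 fell in the libraries labelled JeKo-1, with a median log2 change of -0.67, against -0.65 for the other 48. In Granta-519, 5 fell, 3 rose and 2 did not pass, with a median of -0.09. Of the other 48, 37 fell and 4 rose there, with a median of -0.39. Over all tested genes, 31.1% fell under the JeKo-1 label, and 31.3% fell and 39.6% rose in Granta-519. The difference between lines passed for 9 of the 10 and for 32 of the other 48. The medians moved with the choice of host genes. A shorter list of 8 hosts, which lacks TSR1 and POLR1C, had medians of -0.52 under the JeKo-1 label and 0.04 in Granta-519, where 3 of the 8 fell and 3 rose, against -0.66 and -0.39 for the other 50. The counts are of polyadenylated RNA, and the small RNAs themselves were not measured.

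Most other genes of the pathway fell too, beside falls of 31.1% of all tested genes under the JeKo-1 label and 31.3% in Granta-519. Of 84 further ribosome biogenesis factors, 75 fell and 4 rose in the libraries labelled JeKo-1 (median -0.55), and 59 fell and 5 rose in Granta-519 (median -0.30). TSR3, an enzyme that modifies the small subunit RNA, fell most in both lines, by 1.42 under the JeKo-1 label and 1.5 in Granta-519 on the log2 scale, followed by the helicase DDX49, by 1.26 under the JeKo-1 label and 1.1 in Granta-519. NMD3, the export adaptor of the large subunit, rose in both lines, by 0.16 under the JeKo-1 label and 0.56 in Granta-519. The difference between lines passed for 43 of these 84 that were more negative and for 1, DDX47, that was more positive under the JeKo-1 label.

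Of 8 further RNA polymerase I factors, 4 fell and 1 rose in the libraries labelled JeKo-1 (median -0.23), beside 31.1% and 35.3% of all tested genes. In Granta-519, 3 fell and 1 rose (median -0.08), beside 31.3% and 39.6%. The falls there, 37.5% of the list, were near the share over all tested genes. CD3EAP, the partner of POLR1E in the polymerase, averaged 5.54 CPM in chidamide and 17.4 CPM in vehicle under the JeKo-1 label (-1.65), and 9.94 CPM in chidamide and 11.1 CPM in vehicle in Granta-519 (-0.16, not passed), and the difference of -1.49 passed (edgeR adjusted p = 4.88e-09). TTF1, the transcription termination factor, went the other way, with -0.18, not passed, under the JeKo-1 label and -0.70 in Granta-519, a difference of 0.51 that passed (edgeR adjusted p = 0.00015). BAZ2A, a subunit of the complex that silences ribosomal DNA, was at 0.03, not passed, under the JeKo-1 label and rose by 0.46 in Granta-519. TWISTNB, a polymerase subunit, rose by 0.25 under the JeKo-1 label and was at 0.00, not passed, in Granta-519.

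The nuclear machines that share subunits or substrates with the nucleolus also fell for the most part. Of 5 subunits common to the RNA polymerases, 4 fell in each line. Of all tested genes, 31.1% fell under the JeKo-1 label and 31.3% in Granta-519. Among 11 RNA polymerase III subunits, 9 fell in each line, 1 rose under the JeKo-1 label and 2 rose in Granta-519, where POLR3G rose by 0.62. Of 12 RNA exosome genes, 11 fell in the libraries labelled JeKo-1 and 10 in Granta-519, EXOSC5 by 1.08 under the JeKo-1 label and 0.89 in Granta-519. Among 7 RNA polymerase II subunits, 7 fell under the JeKo-1 label, and 5 fell and 1 rose in Granta-519.

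The ribosomal proteins themselves split by compartment. Of 82 cytosolic ribosomal protein genes, 8 fell (9.76%) and 40 rose (48.8%) in the libraries labelled JeKo-1, beside 31.1% and 35.3% of all tested genes. In Granta-519, 4 fell (4.88%) and 49 rose (59.8%), beside 31.3% and 39.6%. Fewer of them thus fell, and more rose, than over all tested genes. Only their medians, 0.08 under the JeKo-1 label and 0.11 in Granta-519, lie near those of all tested genes. Of 76 mitochondrial ribosomal protein genes, 57 fell and 5 rose in the libraries labelled JeKo-1 (median -0.39), and 54 fell and 5 rose in Granta-519 (median -0.37). Their difference between lines passed for 16 that were more negative and 9 that were more positive under the JeKo-1 label. Cytosolic ribosomal protein genes have many pseudogenes, so their counts are less certain.

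**Figure D5:**
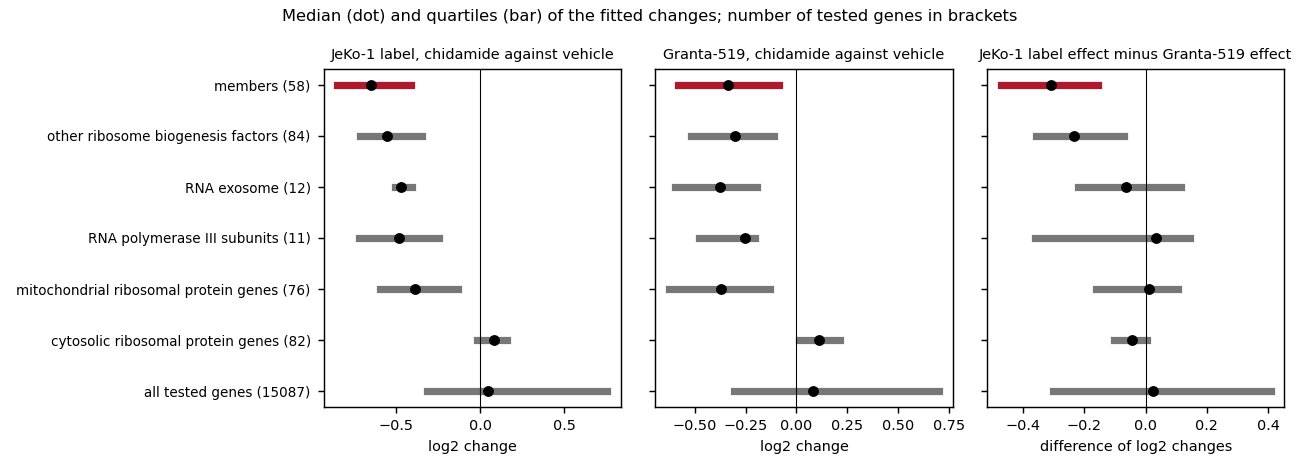
Median (dot) and quartiles (bar) of the log2 change with chidamide under the JeKo-1 label (left) and in Granta-519 (middle), and of the difference between these effects (right), for the 58 members (red), other lists of the pathway and all tested genes. The members' median lies lowest of the lists shown in the left and right panels, at -0.65 and -0.31. The median of cytosolic ribosomal protein genes lies near that of all tested genes, with quartiles closer together.

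Markers of other cell types summed to less than the B cell markers in all libraries, and some moved with chidamide. The summed level of 6 B cell markers was 2778 to 2816 CPM in chidamide and 2875 to 3082 CPM in vehicle under the JeKo-1 label, and 4001 to 4152 CPM in chidamide and 3312 to 3430 CPM in vehicle in Granta-519. The 7 myeloid markers summed to 12.6 to 13.4 CPM in chidamide and 0.497 to 0.889 CPM in vehicle under the JeKo-1 label. In Granta-519 these markers summed to 19.5 to 21.5 CPM in chidamide and 1.2 to 1.69 CPM in vehicle. CSF1R made up most of these sums, except in vehicle under the JeKo-1 label. LYZ and S100A8 summed to 163 and 1 counts over the 3 chidamide libraries under the JeKo-1 label and 14 and 0 in vehicle, and to 4 and 0 in chidamide and 2 and 0 in vehicle in Granta-519, and MPO had no count outside the Granta-519 vehicle libraries, where it had 2. The 8 T and NK markers summed to 5.41 to 8.09 CPM in chidamide and 2.73 to 4.35 CPM in vehicle under the JeKo-1 label. In Granta-519 they summed to 2.24 to 3.22 CPM in chidamide and 0.533 to 0.886 CPM in vehicle. CD3E rose by 3.75 under the JeKo-1 label and 5.18 in Granta-519 on the log2 scale. NKG7 rose by 0.49 under the JeKo-1 label and CD8A by 2.97 in Granta-519, and no marker of this list passed as lower. CD3D had 1 count over the 12 libraries together. The 7 erythroid markers summed to at most 1.62 CPM in any library. The 8 epithelial and stromal markers summed to 30.3 to 34.2 CPM in chidamide and 24.7 to 28.3 CPM in vehicle under the JeKo-1 label, and to 75.5 to 81.2 CPM in chidamide and 61.7 to 65.9 CPM in vehicle in Granta-519, mostly COL1A1. Their part in the results was not tested.

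Positions bear on how far single genes can be trusted. The 58 genes lie on 21 chromosomes, 10 of them on chromosome 2. By GENCODE 29, exons of 23 genes overlap a gene on the opposite strand and exons of 7 overlap one on the same strand, and 16 genes have named pseudogenes. The sources used here do not say whether counting used strand, so reads of a gene and an antisense partner cannot be told apart. HEATR1 has the longest such overlap, 2095 bases, with LGALS8.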

How the data were processed

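Polyadenylated RNA of 12 libraries was analysed, 3 for each of 4 groups, and groups and replicate numbers came from the library titles. The authors deposited a table of raw counts, 1 row per gene symbol. Per the submitters' processing notes, STAR was the aligner and hg19 the genome build; its version, the program that counted, its annotation and its use of strand are not given in the sources used here. The authors also deposited a table named as TPM, whose columns summed to 81790 to 84121. Its values are treated as a length-scaled score: for all 10174 genes checked, with at least 20 counts in every library, the deposited score was the count divided by the library total and by a constant of that gene, within a relative tolerance of 0.001. The constant had a Spearman correlation of 0.68 with exon length in GENCODE 29 over 9642 genes. The scores served only to compare levels between genes.

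The main test was the quasi-likelihood test of edgeR 4.0.16 (R 4.3.3), run on the counts as deposited with filterByExpr, TMM scaling, 4 group means and robust fitting over 15087 genes. All 58 members passed the filter on low counts. Benjamini-Hochberg adjustment ran over all tested genes, with a threshold of 0.05, and 8 residual degrees of freedom remained. CPM used TMM-scaled library sizes. The SE of a log2 change is its size divided by the square root of the F statistic and is approximate. With a common biological coefficient of variation of 0.0422, small changes passed. The fit was tested on simulated data. Alternatives were 3 other scalings, no filter, DESeq2 1.42.0, a minimum fold of 1.2 (glmTreat), a replicate block, each library left out and fits of each line alone. Replicates were compared by chi-square, which averaged 1.63 to 5.47 per gene, so none was merged; pairs with vehicle replicate 2 under the JeKo-1 label were highest. The main fit did not pair samples by replicate number. Same-numbered libraries had correlations of their deviations between -0.08 and 0.22. These were not compared with differently numbered libraries, so they do not settle whether the numbers mark pairs.

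All 58 members were eligible to be named. Of the other gene lists, the rule named the 3 highest and 3 lowest genes past the threshold in a comparison, and every gene of lists of 8 or fewer. The members and lists were chosen with earlier results of these data known. Promoter windows came from RefSeq on GRCh38.p14, and no window was at hand for 10 members; overlaps came from GENCODE 29. Counting intervals were not computed.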

Additional observations from a re-analysis of the deposited data

Results flagged for a closer look

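Among the 58 genes, 41 had a chidamide effect that differed between the lines by the test of the difference itself (edgeR, adjusted p under 0.05). The values below are the log2 change under the JeKo-1 label minus that in Granta-519, with 3 libraries per group; all 41 were negative. Over all tested genes, 19.5% passed with a negative and 20% with a positive difference. In RNA polymerase I and its factors these were POLR1E (-0.59), POLR1A (-0.51), POLR1B (-0.41), TAF1D (-0.41), RRN3 (-0.40), POLR1C (-0.37) and UBTF (-0.28). In the box C/D core these were NOP56 (-0.70), NOP58 (-0.42) and FBL (-0.23). In the box H/ACA core this was DKC1 (-0.47). In the phosphoproteins these were NCL (-0.76), NOLC1 (-0.59) and NPM1 (-0.51). In the GTPases these were GNL3 (-0.48) and GNL2 (-0.26). In the PeBoW complex these were BOP1 (-0.36) and PES1 (-0.29). In large subunit assembly these were RRP1 (-0.81), RRP1B (-0.77), NOP2 (-0.45), NOP16 (-0.29), DDX18 (-0.27) and NIP7 (-0.25). In the small subunit processome these were RRP9 (-0.60), NOP14 (-0.59), MPHOSPH10 (-0.55), UTP15 (-0.46), WDR43 (-0.44), IMP4 (-0.35), RCL1 (-0.33), DDX10 (-0.32), UTP20 (-0.29), UTP3 (-0.26) and HEATR1 (-0.24). In late small subunit assembly these were TSR1 (-0.52) and RRP12 (-0.25). In the nucleolar regulators these were MYBBP1A (-0.64), DDX21 (-0.51), LYAR (-0.45) and PA2G4 (-0.26). With TMM scaling and all 12 libraries, the change in RRP1, RRP1B, NCL, POLR1E, DDX10 and TAF1D passed under the JeKo-1 label and not in Granta-519, and that in RCL1 passed in Granta-519 and not under the JeKo-1 label. Under at least 1 other setting, RRP1, RRP1B, NCL, POLR1E and DDX10 also passed in Granta-519, NCL and RRP1B as higher with chidamide and the others as lower. NPM1, NOP56, NOP58, GNL2 and GNL3 passed in opposite directions with TMM scaling and all 12 libraries.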

How the results depend on the processing

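All 58 genes were tested under every alternative, and 49 of 55 calls under the JeKo-1 label, 31 of 49 in Granta-519, 22 of 41 for the difference between lines and 36 of 51 in vehicle held in each of them; 2, 8, 8 and 6 genes that had not passed in those comparisons passed in at least 1. Genes that rose under the JeKo-1 label numbered 2, but 4 with upper-quartile scaling, 4 with library-size scaling and 0 with a minimum fold of 1.2, and 0 to 2 with 1 library left out. Rises in Granta-519 numbered 7, but 11 with upper-quartile scaling and 2 with the minimum fold. More negative differences between lines numbered 41, but 26 without the filter on low counts and 22 with the minimum fold, and 28 with library-size scaling. More positive differences numbered 0, but 2 with upper-quartile scaling, 4 with library-size scaling, 5 without the filter, and 0 to 1 with 1 library left out (1 without JeKo-1 label vehicle replicate 1 or Granta-519 vehicle replicate 3). Genes lower in vehicle under the JeKo-1 label numbered 11, but 6 with the minimum fold. Other values turned sign: NPM1 under the JeKo-1 label to 0.046 with upper-quartile scaling and 0.031 with library-size scaling, GNL2 in Granta-519 to -0.0086 without the filter, and NOLC1 and DDX56 in vehicle to -0.011 and -0.017 with library-size scaling. The cause was not tested; the minimum fold asks for a larger change by construction.

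With the replicate number as a block, 53 genes fell and 2 rose under the JeKo-1 label, 42 fell and 7 rose in Granta-519, 42 and 0 had more negative and more positive differences, and 41 were higher and 11 lower in vehicle. Whether the numbers pair the samples was not settled by the check described above. Leaving out 1 library gave 51 to 53 falls under the JeKo-1 label, 42 in Granta-519 and 41 to 43 more negative differences. DESeq2 called 52 lower and 2 higher, 42 lower and 8 higher, and 41 more negative. In fits of 6 libraries, 52 fell and 2 rose under the JeKo-1 label and 45 fell and 5 rose in Granta-519. Depth did not limit the members other than PPAN, since all others had at least 333 counts in every library.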
